A study of Homo sapiens with 6 samples.

Results

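Secreted factors whose mRNAs are known to rise under mitochondrial or amino acid stress were examined in COX4I1-depleted leukemia cells. The 5 genes, GDF15, FGF21, INHBE, STC2 and ADM2, were chosen by symbol out of the 19845 symbols of the count table. STC2 and INHBE were chosen for their rise on sgCOX4I1 in these same libraries, so their values are a description and carry no test. GDF15, ADM2 and FGF21 were chosen as known stress-responsive hormones, though with earlier results of these data at hand. The series holds 6 RNA-seq libraries of Molm13, a human acute myeloid leukemia line with a rearranged MLL gene, engineered to express Cas9. Cells received a control guide (sgCtrl, 3 libraries) or a guide against COX4I1 (sgCOX4I1, 3 libraries), the nuclear gene for a subunit of cytochrome c oxidase, the last enzyme of the respiratory chain. Both groups carried the guide in the lentiviral ipUSEPR vector and were selected with puromycin at 1 ug/ml. The libraries of a group were made with different guide sequences, so the spread within a group includes that between guides. No time of harvest is given.

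Mitochondrial and amino acid stress both feed into the integrated stress response, in which phosphorylation of the initiation factor eIF2 slows protein synthesis and favors translation of the transcription factor ATF4. ATF4, often with CHOP (DDIT3) or another partner, switches on genes of amino acid uptake and synthesis and, in some tissues, genes of secreted factors that carry the stress signal to other organs. GDF15 and FGF21 are known as circulating markers of mitochondrial disease.

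The 250 bases before the RefSeq start are shown for FGF21, which had no counts and holds a known stress-response motif there, and for STC2 and ADM2, which were expressed and hold none. Sequences are RefSeq GRCh38.p14, on the strand of the gene, 5′ to 3′. Of the 5 genes, 4 had an entry. The starts are those of RefSeq, whereas the gene loci given further on are from GENCODE, so the STC2 window overlaps the 5′ end of its GENCODE locus and the GDF15 window lies inside that of GDF15. Capitals mark a match to 1 of 4 motifs searched on both strands, the C/EBP-ATF response element TGATGNAA to which ATF4 is known to bind, the cyclic AMP response element TGACGTCA, the CCAAT box and the TATA box TATAAA. The window of FGF21 is chr19:48755274-48755523, that of STC2 is chr5:173328415-173328664 on the minus strand, and that of ADM2 is chr22:50481293-50481542.
FGF21: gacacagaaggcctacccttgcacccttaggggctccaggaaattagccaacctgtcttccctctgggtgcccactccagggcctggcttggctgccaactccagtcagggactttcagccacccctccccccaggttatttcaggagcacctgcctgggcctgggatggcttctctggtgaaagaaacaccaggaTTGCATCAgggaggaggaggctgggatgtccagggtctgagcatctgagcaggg
STC2: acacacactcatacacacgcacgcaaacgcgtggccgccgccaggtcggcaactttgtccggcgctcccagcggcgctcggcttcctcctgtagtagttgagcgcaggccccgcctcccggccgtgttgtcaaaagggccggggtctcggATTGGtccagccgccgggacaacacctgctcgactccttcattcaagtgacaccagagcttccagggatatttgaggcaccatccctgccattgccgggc
ADM2: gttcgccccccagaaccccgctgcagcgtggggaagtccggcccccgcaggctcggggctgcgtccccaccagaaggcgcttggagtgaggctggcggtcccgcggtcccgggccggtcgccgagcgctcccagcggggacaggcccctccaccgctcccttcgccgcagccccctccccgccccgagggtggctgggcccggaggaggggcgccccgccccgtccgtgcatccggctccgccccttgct
The FGF21 window held 1 match to the C/EBP-ATF element, read on the opposite strand, at bases -54 to -47 from the start. The same letters stood in 3.14% of the 35116 promoter windows of that length. The STC2 window held a CCAAT box on the opposite strand at bases -100 to -96, as did the window of GDF15, which is not printed, at bases -103 to -99. A CCAAT box stood in 32.0% of all windows. GDF15 also held a TATA box at bases -29 to -24, present in 10.7% of windows. The ADM2 window, with a GC content of 78.8%, held no match to any of the 4 motifs. TGACGTCA, found in 1.65% of windows, was in none of the 4 entries. FGF21, whose window alone held the C/EBP-ATF letters, had no counts in any library. INHBE had no entry.

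Libraries held 17241014 to 30861943 counts, so that 3 counts corresponded to 0.0959 to 0.174 CPM, the count scaled by library size and TMM factor. Of the 19845 genes, 11861 had enough counts for the edgeR quasi-likelihood test. An adjusted p (Benjamini-Hochberg) under 0.05 was met by 126 genes higher on sgCOX4I1, or 1.06%, and by 121 genes lower, or 1.02%. The 3 sgCOX4I1 libraries all lay above the 3 sgCtrl libraries for 11.2% of genes and all below for 10.4%. An unadjusted edgeR p under 0.05 was met by 17.3% of genes, and 3.84% were called by DESeq2, both counted in either direction. These shares are the background for every count below. The myeloid markers checked for the labelled line were mostly expressed, apart from CD34 with 7 counts over all libraries and KIT below 1 CPM in both group means. The summed CPM of the 20 myeloid leukemia markers was 8471 to 9221 on sgCtrl and 8884 to 9839 on sgCOX4I1. Of 19 tested, 7 had a log2 fold change above 0 and 12 below. The granule enzyme MPO, the 1 called, fell by 1.06 on the log2 scale (edgeR adjusted p = 1.60e-05), while DESeq2 called 3. The lysozyme gene LYZ, named after its value was seen, had a log2 fold change of 0.77 (edgeR adjusted p = 0.0534).

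COX4I1, the targeted gene, stood at 513, 502 and 463 CPM on sgCtrl #1, #2 and #3 and at 132, 378 and 133 CPM on sgCOX4I1 #1, #2 and #3. Libraries #1 and #3 thus kept 26.7% and 27.0% of the mean control level and library #2 kept 76.7%. The log2 fold change was -1.21 with a standard error (SE) of 0.29, and the edgeR adjusted p, 0.0512, missed the threshold. When library #2 of sgCOX4I1 was left out, the log2 fold change was -1.89 (adjusted p = 3.37e-06). Cutting by Cas9 need not lower the mRNA of a gene, and the protein is not measured in these files. The paper reports less COX4I1 protein on immunoblots of Molm13-Cas9 cells that received independent guides against COX4I1.

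COX4I1-targeted cells held more ADM2, STC2 and INHBE mRNA than control cells, by 2.13-, 2.44- and 2.79-fold between group means, without overlap between the groups, as for 11.2% of all genes. GDF15 was 1.90-fold higher in mean, but its groups overlapped and the difference did not pass the test in the design used here. FGF21 mRNA was not detected in either group. Of the 2 members that were both tested and not chosen for their rise, ADM2 passed and GDF15 did not, against 1.06% of all genes passing in that direction. Both were listed with earlier results of these data known, so the set is not independent of these libraries. RNA of whole cultures cannot tell a higher level in each cell from a larger share of cells that express a gene.

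**Figure D1:**
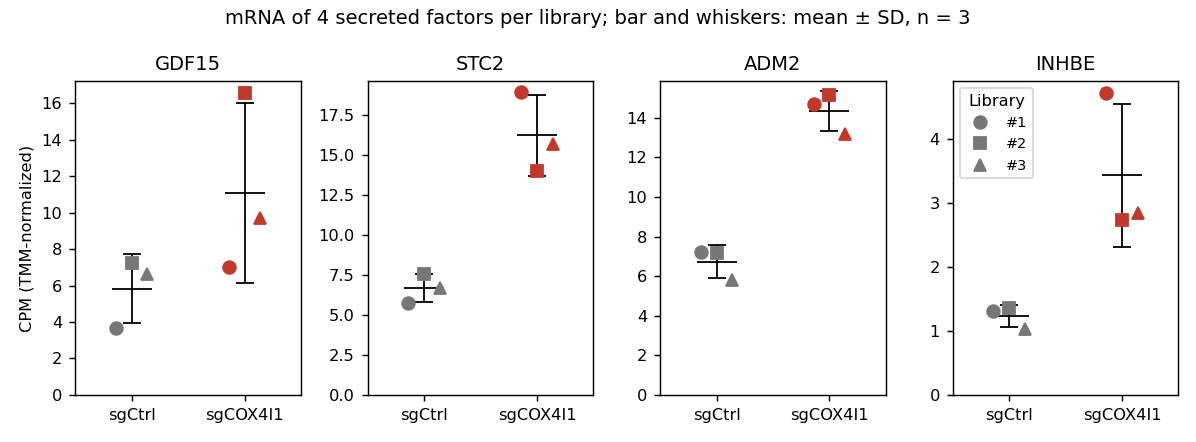
TMM-normalized CPM (y axis, from 0, a separate scale in each panel) of GDF15, STC2, ADM2 and INHBE in 3 sgCtrl (gray) and 3 sgCOX4I1 (red) libraries, with mean ± SD. STC2, ADM2 and INHBE have all sgCOX4I1 libraries above all sgCtrl libraries, whereas GDF15 on sgCOX4I1 #1, at 6.99 CPM, lies below sgCtrl #2, at 7.22 CPM.

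GDF15 (chr19:18374731-18389176, plus strand, GRCh38) encodes a distant member of the TGF-β family that acts on the hindbrain to reduce appetite. It had 67, 133 and 135 counts on sgCtrl #1, #2 and #3, and 157, 285 and 303 on sgCOX4I1 #1, #2 and #3. These were 3.65, 7.22 and 6.63 CPM against 6.99, 16.6 and 9.69 CPM. The control library #1 was the lowest and the sgCOX4I1 library #2 by far the highest of its group, while sgCOX4I1 #1 lay within the control range. Means were 5.84 ± 1.91 and 11.1 ± 4.94 CPM (SD, n = 3). The log2 fold change was 0.90 with an SE of 0.29 and an edgeR adjusted p of 0.126. An exact two-sided permutation test of mean log2 CPM gave p = 0.2, where 0.1 is the smallest that 3 libraries against 3 allow. Counting error does not cover this spread. The exact Poisson 95% interval, which covers counting error only, was 5.94 to 8.18 CPM for sgCOX4I1 #1, 8.63 to 10.8 for #3 and 14.7 to 18.6 for #2. The value turned on single libraries. Leaving out sgCOX4I1 #2 lowered the log2 fold change to 0.52 (edgeR adjusted p = 0.402). Leaving out sgCOX4I1 #1 raised it to 1.14, which passed the test (adjusted p = 0.0286). GDF15 also passed when genes of low counts were kept in the fit (0.91, adjusted p = 0.0145). A block for the library number gave 0.89 (adjusted p = 0.00139). In the other 11 of the 14 alternative runs it did not pass.

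ADM2 (chr22:50481543-50486440, plus strand) encodes adrenomedullin 2, or intermedin, a vasodilator peptide of the calcitonin family. It had 133, 132 and 118 counts on sgCtrl #1, #2 and #3, and 330, 261 and 413 on sgCOX4I1 #1, #2 and #3. In CPM the control libraries stood at 7.25, 7.17 and 5.80 and the sgCOX4I1 libraries at 14.7, 15.2 and 13.2. The groups lay far apart, the lowest sgCOX4I1 library being 1.82 times the highest control. ADM2 rose from 6.74 ± 0.815 to 14.4 ± 1.03 CPM (SD, n = 3), a log2 fold change of 1.09 with an SE of 0.14 (edgeR adjusted p = 0.00189). The exact two-sided permutation p was 0.1, the smallest possible. Among the 4 detected genes, ADM2 varied least between sgCOX4I1 libraries, with a coefficient of variation of 7.14% against 44.5% for GDF15. ADM2 shares 131 exonic bases, 3.05% of its exonic length, with SBF1 on the other strand. SBF1, at 122 ± 6.40 and 118 ± 5.20 CPM, had a log2 fold change of -0.040 (adjusted p = 0.827), and the strand setting of the counting is not given in the sources used here.

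STC2 (chr5:173314723-173328447, minus strand) encodes stanniocalcin 2, a glycoprotein that inhibits the protease PAPP-A, which releases insulin-like growth factors from their binding proteins. Counts were 106, 139 and 136 on sgCtrl #1, #2 and #3, and 426, 241 and 492 on sgCOX4I1 #1, #2 and #3. In CPM these were 5.78, 7.55 and 6.68 against 19.0, 14 and 15.7. The sgCOX4I1 libraries were all higher, #1 the most and #2 the least. Means were 6.67 ± 0.886 and 16.2 ± 2.52 CPM (SD, n = 3), and the fitted log2 fold change was 1.29 with an SE of 0.15.

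INHBE (chr12:57452323-57459280, plus strand) encodes the βE subunit of activin E, a TGF-β family hormone made mainly by liver. Counts were 24, 25 and 21 on sgCtrl #1, #2 and #3, and 106, 47 and 89 on sgCOX4I1 #1, #2 and #3. This was the least abundant of the detected members, at 1.31, 1.36 and 1.03 CPM against 4.72, 2.73 and 2.85 CPM. As for STC2, sgCOX4I1 #1 stood highest and #2 lowest of the sgCOX4I1 libraries, and all 3 lay above the controls. Means were 1.23 ± 0.176 and 3.43 ± 1.12 CPM (SD, n = 3), with a fitted log2 fold change of 1.48 and an SE of 0.29. INHBC, the activin βC gene that ends 261 bases before INHBE, had 0 counts in the 3 controls and 7, 0 and 2 counts on sgCOX4I1 #1, #2 and #3, too few to be tested. An antisense noncoding RNA that is not in the table overlaps 499 exonic bases of INHBE, 16.4% of its exonic length.

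FGF21 (chr19:48755524-48758333, plus strand) encodes a hormone of liver and stressed muscle that acts on fat and brain. It had 0 counts in all 6 libraries. The upper bound of the exact Poisson 95% interval was 0.118 CPM in the deepest library and 0.214 CPM in the shallowest, so a level below that was not detectable at this depth. It was therefore not tested. FUT1 and IZUMO1, the next 2 genes on its one side, also had 0 counts, whereas BCAT2 on its other side was expressed at 18.7 ± 1.48 and 23.3 ± 1.5 CPM (adjusted p = 0.138).

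Levels of different genes can be compared only per length. The length used here joins the exons of all annotated transcripts of a gene. Which transcripts were expressed was not determined, and other lengths could change the order of the genes. Per kilobase of exonic sequence, GDF15 was the most abundant on sgCtrl at 2.80 ± 0.917 CPM, followed by ADM2 at 1.57 ± 0.190, STC2 at 1.32 ± 0.175 and INHBE at 0.405 ± 0.0576 (SD, n = 3). On sgCOX4I1 the order of these length-scaled levels was the same, at 5.31 ± 2.37, 3.35 ± 0.239, 3.21 ± 0.498 and 1.13 ± 0.367 CPM per kilobase. ADM2 and STC2 overlapped in both groups and GDF15 overlapped both of them on sgCOX4I1, so only INHBE stood clearly below the others in each group.

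The sgCOX4I1 libraries did not rank the members alike. STC2 reached 285%, 210% and 236% of its control mean on sgCOX4I1 #1, #2 and #3, and INHBE reached 383%, 222% and 231%. For both, library #2, which kept the most COX4I1 mRNA, was the lowest. GDF15 took the opposite order, at 120%, 284% and 166%, and ADM2 stood at 218%, 225% and 196%. Library #2 was the lowest of the 3 for 31.9% of all genes tested. With 3 libraries, the relation of the members to residual COX4I1 mRNA was not tested.

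**Figure D2:**
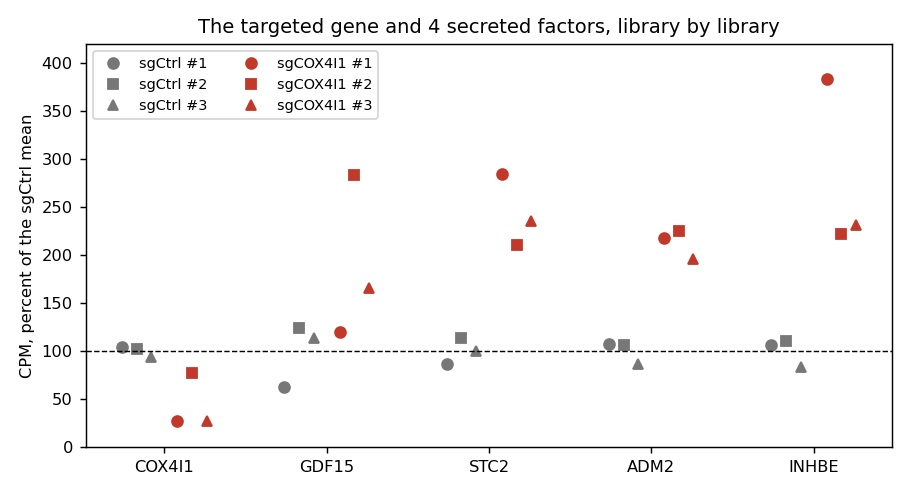
CPM in each library as a percent of the mean sgCtrl level (y axis; dashed line at 100) for COX4I1 and 4 secreted factors, gray for sgCtrl and red for sgCOX4I1, with a marker shape for each number. The square of sgCOX4I1 #2 is highest for COX4I1 (76.7%) and GDF15 (284%) but lowest for STC2 (210%) and INHBE (222%) among the red points.

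Of 14 transcription factors of the stress response, 2 rose (14.3%, against 1.06% of all genes), none fell and 12 did not pass the test. ATF5, a relative of ATF4 tied to the mitochondrial unfolded protein response, rose from 36.5 ± 1.53 to 58.5 ± 5.0 CPM (log2 fold change 0.68, edgeR adjusted p = 0.00189). CEBPB, a C/EBP partner of ATF4, rose from 42.9 ± 4.37 to 66.5 ± 14.1 CPM (0.63, adjusted p = 0.0259), a call lost without sgCtrl #2 (0.220), sgCOX4I1 #2 (0.116) or sgCOX4I1 #3 (0.0522). ATF4 itself, controlled mainly through translation, stood at 583 ± 62.2 and 582 ± 39.2 CPM, with a log2 fold change of -0.0035 whose sign changed with the scaling (adjusted p = 0.988). DDIT3, the CHOP gene, stood at 24.7 ± 4.59 and 28.7 ± 3.32 CPM (0.22, adjusted p = 0.409). ATF3, a stress-induced factor, stood at 8.50 ± 2.2 and 12.8 ± 2.53 CPM (0.57, adjusted p = 0.136). ATF3 passed without sgCtrl #3 (0.0401), with genes of low counts kept (0.0444) and with a block for the library number (0.0179). It did not pass in the other 11 alternative runs. Its sgCOX4I1 libraries all lay above the controls, as for 11.2% of all genes.

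Genes known as ATF4 and CHOP targets, none of them a member here, often rose. Of 46 listed genes, 42 were tested, 15 rose and none fell, a share of 35.7% against 1.06% of all genes. The 3 sgCOX4I1 libraries lay above the controls for 25 of the 42, and for 11.2% of all genes. The median log2 fold change was 0.29, against -0.0023 for all genes. CHAC1, which degrades glutathione, went from 3.06 ± 0.271 to 8.65 ± 0.343 CPM (log2 fold change 1.5, edgeR adjusted p = 0.000638). The called genes included amino acid carriers, the glycine carrier SLC6A9 (1.77, adjusted p = 0.0125), the cystine carrier SLC7A11 (1.02, 0.00397) and the cationic carrier SLC7A1 (0.44, 0.0108). They also included PSAT1 of the serine pathway (0.72, 0.00387), the transaminase GPT2 (0.52, 0.00501) and the mitochondrial folate enzyme MTHFD2 (0.42, 0.0119). Other genes of these kinds in the list did not pass, among them the carriers SLC38A2 (0.095, adjusted p = 0.571), SLC1A5 (0.24, 0.167) and SLC1A4 (0.21, 0.189) and the enzymes PHGDH (0.086, 0.678), PSPH (0.24, 0.230) and ASNS (0.36, 0.0894), all named after their values were seen. SESN2, an inhibitor of mTORC1, rose by 0.68 (0.00212). The count of called targets depended on single libraries, at 2 without sgCtrl #2, 5 without sgCOX4I1 #2 and 9 without sgCOX4I1 #1. Of all genes tested in those runs, 24 of 11999, 51 of 12001 and 230 of 11952 were called, against 247 with all libraries. CHAC1, SESN2 and ATF5 passed under every alternative run. This list and the others were drawn up with earlier results of these data known.

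**Figure D3:**
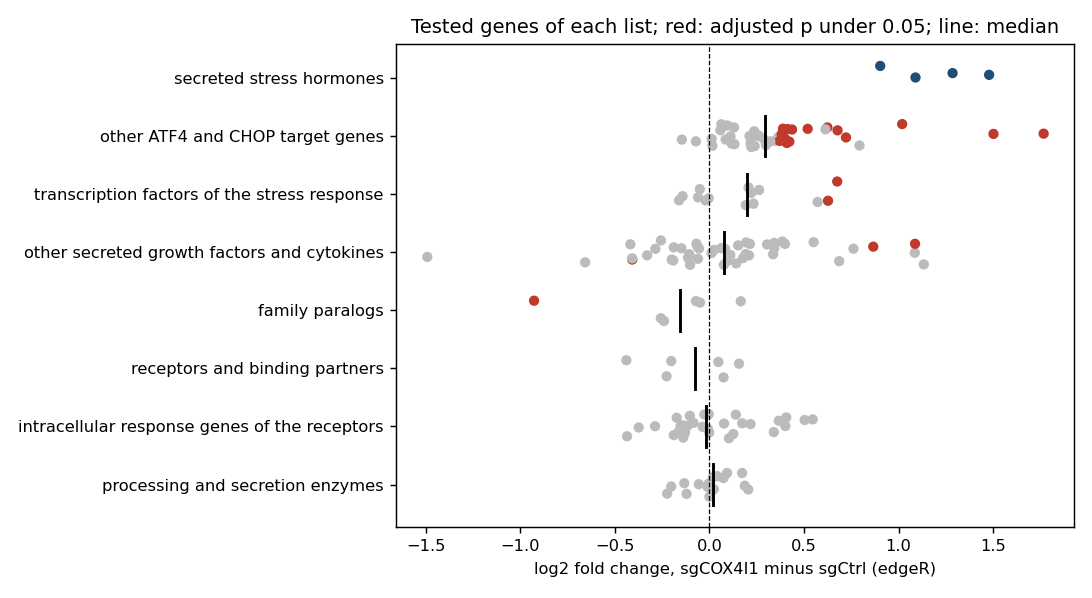
Log2 fold change of sgCOX4I1 over sgCtrl (x axis, edgeR) for each tested gene, grouped by list (y axis); red points have an adjusted p under 0.05, gray points do not, blue points are the 4 detected members without any call drawn, and vertical lines are medians of the other lists. The ATF4 and CHOP targets have their median at 0.29 and 40 of 42 points above 0, while receptors have theirs at -0.077.

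Receptors through which the 5 factors are known to act often had few or no counts. Of 20 receptors and binding partners, 6 were tested and none was called, with 1 at an unadjusted p under 0.05 (17.3% of all genes) and 1 called by DESeq2 (3.84%). GFRAL, the receptor of GDF15, had 0 counts in every library, while its co-receptor RET was abundant at 537 ± 15.7 and 555 ± 13.7 CPM (adjusted p = 0.788). KLB, the co-receptor that FGF21 needs, also had 0 counts, beside its partner FGFR1 at 104 ± 4.70 and 109 ± 3.66 CPM (adjusted p = 0.647). CALCRL, the receptor of ADM2, had at most 5 counts in a library, and its partners RAMP1 and RAMP2 at most 1. ACVR1C, a receptor of activin E, had at most 3 counts, whereas other activin receptors of the list were expressed and not called. ACVR1B stood at 10.45 ± 2.08 and 11.66 ± 0.793 CPM, ACVR2A at 2.46 ± 0.552 and 2.15 ± 0.144, and ACVR2B at 8.28 ± 0.447 and 7.07 ± 0.292. PAPPA, the protease inhibited by STC2, had 0 counts. FGFR3 was the gene under the unadjusted threshold, at 51.5 ± 7.51 and 38.1 ± 4.38 CPM (log2 fold change -0.44, SE 0.11, adjusted p = 0.0650), and it passed when sgCtrl #3 was left out. The receptor genes named here were chosen after their values were seen.

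Genes known to respond inside the cell to such receptors, SMAD targets and feedback inhibitors of MAP kinase signaling, showed no call among 30 tested, with 6 at an unadjusted p under 0.05, 0 called by DESeq2 and a median log2 fold change of -0.017. Among all genes, 17.3% met that unadjusted p. Enzymes that cleave, modify or export secreted proteins showed no call among 17 tested either, with 2 at an unadjusted p under 0.05, 0 called by DESeq2 and a median of 0.017. The amidating enzyme PAM, which matures the ADM2 peptide, stood at 21.7 ± 0.783 and 22.1 ± 0.583 CPM (adjusted p = 0.931). It was chosen after its values were seen.

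Of 16 family paralogs, 6 were tested, none was called higher and 1 fell, where 1.02% of all genes fell. That gene was ADM, the adrenomedullin paralog of ADM2. It stood at 13.5, 18.6 and 21.0 CPM on sgCtrl #1, #2 and #3 and at 8.60, 12.2 and 7.58 CPM on sgCOX4I1 #1, #2 and #3. All sgCOX4I1 libraries lay below all controls, opposite to ADM2, as for 10.4% of all genes. ADM fell by 0.93 on the log2 scale, with an SE of 0.19 (edgeR adjusted p = 0.0257), a call lost without sgCtrl #2 (0.199) or sgCOX4I1 #3 (0.0877).

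Among 72 other secreted growth factors and cytokines, 46 were tested, 2 rose (4.35%, against 1.06% of all genes) and 1 fell. LGALS3, the lectin galectin-3, went from 43.6 ± 9.12 to 93.0 ± 22.1 CPM (log2 fold change 1.09, edgeR adjusted p = 0.00379). IL1B, the inflammatory cytokine interleukin-1β, went from 4.69 ± 1.3 to 8.60 ± 0.358 CPM (0.87, adjusted p = 0.0338). TNF, another inflammatory cytokine, fell by 0.41 on the log2 scale, from 108.8 ± 4.29 to 82.0 ± 6.60 CPM (adjusted p = 0.0203). The count of 3 became 5 without sgCtrl #1, 0 without sgCtrl #2, and 1 without sgCOX4I1 #2 or #3. All genes called numbered 561, 24, 51 and 89 in those runs, against 247 with all libraries.

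Markers of other cell types, hepatocytes and adipocytes among them, were near 0. Muscle markers were not checked. Of 14 hepatocyte markers, 10 had 0 counts in all libraries, albumin (ALB) among them, and the summed level was 1.03 to 2.31 CPM on sgCtrl and 1.28 to 2.65 on sgCOX4I1. Summed adipocyte markers were at most 0.134 CPM, fibroblast markers 1.05 to 2.08 CPM, T and B cell markers at most 1.3 CPM and erythroid markers at most 0.0581 CPM in any library.

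The genes with the closest profile over the 6 libraries differed between members. Likeness was the root mean square difference of log2 CPM, each gene being centred on its own sgCtrl mean, among the 11325 tested genes whose mean reached 1 CPM. All points share the same 6 libraries. The distance depends mostly on the size of the difference between groups, and STC2 and INHBE were both chosen for that difference, so their nearness to each other is a description only. Closest to STC2 was INHBE, at 0.216, then CHAC1 (0.227), HLA-DRA (0.236), ADM2 (0.250) and SLC9C2 (0.269). STC2 was in turn the closest gene to INHBE, followed by SLC6A9 (0.231), CHAC1 (0.235), ID1 (0.277) and PIR (0.299). ADM2 was closest to OSGIN1 (0.122), KCNG1 (0.135), KCNS1 (0.172), BASP1 (0.177) and HLA-DRA (0.226).

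The genes nearest to GDF15 included no other member. They were TSPAN10 (0.158), SEMA6B (0.178), ACP5 (0.178), CTSD (0.185) and CHIT1 (0.199). In each of the 5, as in GDF15, sgCtrl #1 was the lowest control and sgCOX4I1 #2 the highest library. CTSD, the lysosomal protease cathepsin D, stood at 79.6, 115.0 and 140.9 CPM on sgCtrl #1, #2 and #3 and at 118.0, 281 and 202 CPM on sgCOX4I1 #1, #2 and #3. From GDF15 the distance was 0.518 to ADM2, 0.591 to STC2 and 0.764 to INHBE, and 267, 537 and 4241 genes were closer to GDF15 than these members. Seen from the other side, of the 11325 genes compared 309 were closer than GDF15 to ADM2, 189 to STC2 and 360 to INHBE.

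**Figure D4:**
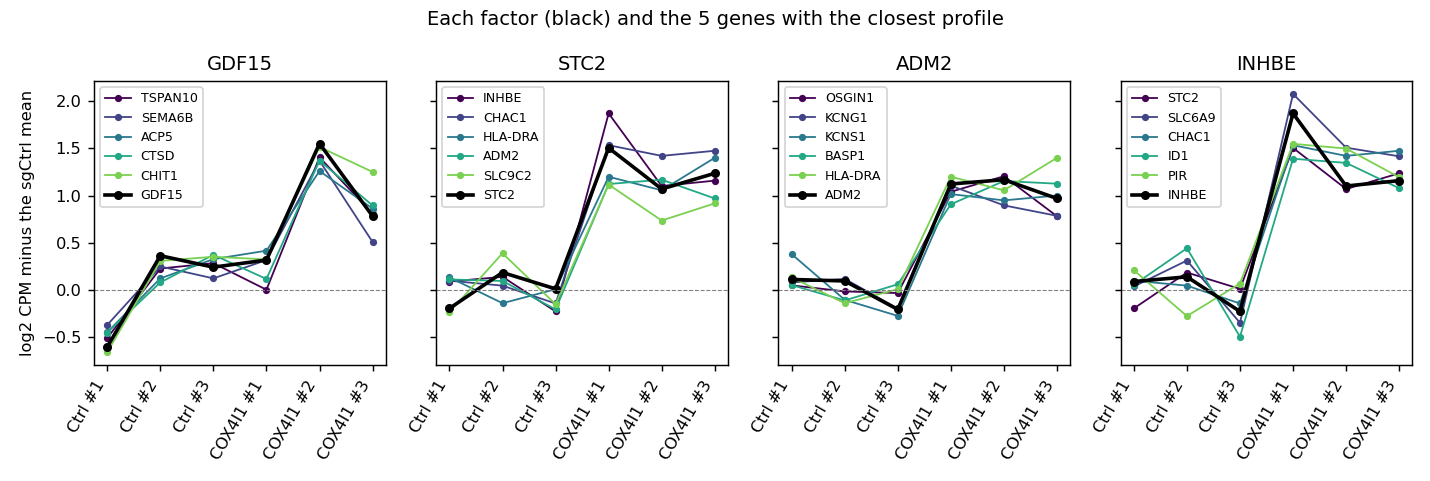
Log2 CPM minus the mean of the sgCtrl libraries (y axis) in the 6 libraries (x axis; Ctrl, sgCtrl; COX4I1, sgCOX4I1) for 4 secreted factors in black and for the 5 genes with the closest profile in color. The GDF15 panel peaks at sgCOX4I1 #2, whereas STC2 and INHBE are highest at sgCOX4I1 #1.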

How the data were processed

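RNA-seq of 6 Molm13-Cas9 libraries was analysed. Deposited values are raw whole-number counts for each gene symbol, in 1 table from the authors. The submitters' processing notes name bcl2fastq 2.20.0.422, STAR 2.6.0a, edgeR and GRCh38, and the column names refer to STAR, duplicate marking and HTSeq, whereas the paper names Trimmomatic, Bowtie2 and RSEM. Whether marked duplicates were counted and the strand setting are not given in the sources used here. Columns lettered C and K were taken as sgCtrl and sgCOX4I1 by letter and number.

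Counts were tested with edgeR 4.0.16 in R 4.3.3 (filterByExpr, TMM, quasi-likelihood F test, no covariate). P-values were adjusted over all 11861 genes tested. CPM used TMM-normalized library sizes, and SD is over 3 libraries. Replicates of a group differed beyond counting noise (chi-square per degree of freedom 11.0 to 27.5). Depth was 17241014 to 30861943 counts. The fit was tested on simulated data. DESeq2 1.42.0, limma-voom (limma 3.58.1), other scalings and filters, thinning, a replicate block and leaving out each library were the alternatives. Coordinates and exonic lengths are GENCODE 44, to which 19202 of 19845 symbols matched. Of 46 listed ATF4 and CHOP targets, 43 matched the table.

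The members and gene lists were chosen with earlier results of these data known. Named genes were the members, COX4I1, up to 8 called genes per list by adjusted p, the transcription factors ATF4, DDIT3, ATF3 and CEBPB, the 5 genes of closest profile per member, and the 2 nearest protein-coding genes on each side and any gene with overlapping exons. Other named genes are stated as chosen after their values were seen. The markers CD34, KIT and ALB were likewise named from their lists with the values at hand. A gene and a gene list of the plan are not reported here.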

Additional observations from a re-analysis of the deposited data

How the results depend on the processing

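ADM2 kept its direction and its adjusted p under 0.05 in all 14 alternatives (log2 fold change 0.99 to 1.15). STC2 (1.16 to 1.38) and INHBE (1.18 to 1.61) stayed higher on sgCOX4I1 in all 14, without a test. GDF15, at 0.90 and an adjusted p of 0.126, was 0.91 without the filter on low counts (0.0145), 0.89 with the replicate block (0.00139) and 0.52 to 1.14 when 1 library was left out, and with DESeq2 its adjusted p was 0.290. FGF21, with 0 counts, could not be fitted in any alternative.

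All genes called numbered 247. There were 456 with DESeq2, 537 without the filter, 1408 with the replicate block and 24 (without sgCtrl #2) to 561 (without sgCtrl #1) with a library left out. Without sgCOX4I1 #2 or #3 there were 51 and 89. Called genes with a fold change of at least 2 numbered 24, or 41 without the filter, 57 with the replicate block and 9 to 50 with a library left out. Receptors went from 0 called to 1 (FGFR3) with DESeq2, without the filter and with the block, and 0 to 1 with a library left out. ATF4 and CHOP targets went from 15 to 26 with the block and 2 to 21 with a library left out. Other secreted factors went from 3 to 6 with DESeq2, 7 without the filter, 14 with the block and 0 to 5 with a library left out. The cause was not tested. The log2 fold change of ATF4 (-0.0035) turned to 0.0094 without scaling factors, 0.00011 with limma-voom, 0.0010 without the filter, 0.00010 with the block, 0.0030 after thinning and -0.086 to 0.060 with a library left out.

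Deviations of same-numbered libraries from their group means correlated at 0.38, -0.024 and 0.29 for #1, #2 and #3. For sgCOX4I1 #1 and #3 the same-numbered control was the best match. Their crossed pairs were at -0.38 (sgCOX4I1 #1 with sgCtrl #3) and -0.32 (sgCOX4I1 #3 with sgCtrl #1). In contrast, sgCOX4I1 #2 correlated best with sgCtrl #3 (0.13). Within a group the 3 deviations of a gene cancel out, so these correlations depend on each other. In both groups #1 and #3 were also the libraries that differed most from each other. A difference between #1 and #3 common to both groups would by itself place #2 near the middle. The correlations therefore cannot decide whether #2 differs from #1 and #3 in sharing structure by number. The methods state no pairing, so the main fit used no block, and whether the numbers pair the samples was not tested. At this depth 3 counts are 0.0959 to 0.174 CPM, which limits FGF21, the unexpressed receptors and INHBC.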

Other observations

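Of the 20 protein-coding genes nearest to the 5 members, 14 were tested and none was called by edgeR, with 6 at an unadjusted p under 0.05 (17.3% of all genes) and 1 called by DESeq2 (3.84%). That gene was ARHGAP9, near INHBE, with a log2 fold change of -0.27 (edgeR adjusted p = 0.0621). GLI1, which begins 505 bases after INHBE, had a log2 fold change of -0.017 (adjusted p = 0.984). MIOX, which begins 344 bases after ADM2, had 0, 1 and 0 counts on sgCtrl #1, #2 and #3 and 2, 0 and 0 on sgCOX4I1 #1, #2 and #3. LRRC25, next to GDF15, stood at 24.6 ± 1.42 and 30.2 ± 2.94 CPM (log2 fold change 0.29, adjusted p = 0.153).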
